A study of Rattus norvegicus with 6 samples.

Results

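This section describes 44 genes of the secretory pathway and of the unfolded protein response in 6 rat mammary tumors. The genes were chosen by name, as endoplasmic reticulum chaperones, protein disulfide isomerases, parts of the translocon, signal peptidase and oligosaccharyl transferase, genes of endoplasmic reticulum-associated degradation, stress sensors and KDEL receptors, and all 44 have 1 row each among the 26195 named rows of the count table. Of these, 43 passed a filter on low counts that left 13139 genes. Manf, a small secreted stress protein, had 2 to 13 counts per tumor and was not tested.

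The tumors came from female F344 rats, an inbred strain, in a chemical carcinogen model, and the younger rats were virgin. Every rat carried a 50 mg pellet of the progestin MPA and received the carcinogen DMBA by gavage at 65 mg per kg, at 21 to 23 months of age in the older group and at 4 months in the younger group. Bulk RNA was sequenced from 3 tumors of older rats (102, 107 and 116) and 3 of younger rats (157, 158 and 167), 1 library each, and there was no untreated mammary gland for comparison. Both age groups therefore share the pellet and the carcinogen, and age cannot be told apart from the source of the rats, since older and younger rats came from different suppliers.

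Proteins that leave the cell are made into the endoplasmic reticulum. The ribosome docks on the Sec61 channel, signal peptidase removes the leader, oligosaccharyl transferase adds sugar chains, and chaperones and disulfide isomerases fold the product. Many of these enzymes end in a KDEL-like tail, which KDEL receptors use to return them from the Golgi. Unfolded protein is sensed by ATF6, IRE1 (Ern1) and PERK (Eif2ak3), which raise the expression of chaperones and of degradation genes. The lactating mammary epithelium is a classical user of this pathway, because caseins are secreted in bulk.

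A known target sequence of ATF6 in chaperone promoters is the endoplasmic reticulum stress element, CCAAT and CCACG separated by 9 bases. It was searched on both strands in promoters of 300 bases (250 before and 50 after the annotated start; RefSeq, GRCr8), which were at hand for 36 of the 44 genes. The element was found in 6 of the 36 (16.7%), against 22 of all 33469 promoters (0.0657%). The matches of 5 genes, shown because they mark the chaperone genes that a stress response is known to act on, are printed with 10 bases on each side and with both parts of the element in capitals. Calr and Creld2 hold it on the opposite strand, where it reads CGTGG and ATTGG, as does the second of the 2 elements of Hsp90b1.
Hspa5, chr3:38452963-38453001, + strand: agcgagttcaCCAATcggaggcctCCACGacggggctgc
Calr, chr19:40213125-40213163, + strand: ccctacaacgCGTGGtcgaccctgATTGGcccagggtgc
Dnajc3, chr15:102432524-102432562, + strand: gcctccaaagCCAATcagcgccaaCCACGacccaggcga
Creld2, chr7:121789229-121789267, + strand: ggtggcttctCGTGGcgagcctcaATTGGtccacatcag
Hsp90b1, with 2 elements, chr7:23012337-23012479, - strand: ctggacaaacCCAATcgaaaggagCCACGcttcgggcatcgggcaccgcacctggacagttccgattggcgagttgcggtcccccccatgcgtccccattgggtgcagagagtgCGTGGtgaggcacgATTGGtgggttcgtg

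The CCAAT part alone, which the element contains, was in 25 of the 36 promoters (69.4%) and in 37.5% of all promoters, and the CCACG part alone was in 69.4% and 31.6%. The letters TGACGTGG, the core of a second stress element, were found only in the promoter of Kdelr3 among the 36 (2.78%), against 0.595% of all promoters. A match is a description of the letters and not of binding. Among the other promoters with the full element were those of Xbp1, Derl3 and Ero1b, which belong to the same pathway. Others were those of genes not listed here for the pathway, such as Birc5, Hnrnpa3, Pan2 and Zfp57. No promoter was at hand for Manf, Pdia3, Pdia6, Derl1, Atf6, Ern1, Sec61a1 and Kdelr2.

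Named rows held 3394451 to 6383983 counts per tumor, so 3 counts, taken as the floor, correspond to 0.528 to 1.03 CPM (read counts relative to the library total, which edgeR's TMM factors adjust), a limit that covers counting error only. Tumor 102 stood apart from the others: of all genes tested 27.3% were lowest in it and 25.7% highest. The luminal markers Epcam and Krt8, which mark mammary epithelium, were present in every tumor, Epcam at 299 to 349 CPM in older and 397 to 496 CPM in younger tumors and Krt8 at 99.8 to 271 CPM and 282 to 335 CPM. Krt18, also a luminal marker, overlapped between the groups, at 97.5 to 210 CPM in older and 87.7 to 217 CPM in younger tumors. The 3 luminal markers tested, of 4 listed, summed to 496 to 788 CPM in older and 839 to 1048 CPM in younger tumors, and none was at 0. In bulk tissue, fewer cells of a type and less RNA per cell cannot be told apart.

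The 44 genes together took 0.454% of the counts in older tumor 102 and 0.675% to 0.808% in the other 5 tumors. Without the caseins in the total the shares were 0.524% in tumor 102 and 0.708% to 0.951% in the others, with the highest in younger tumor 158. On the scale of the mean log2 CPM of the 43 tested genes, older tumors 102, 107 and 116 were at 6.29, 6.65 and 6.77 and younger tumors 157, 158 and 167 at 6.66, 7.03 and 6.57. Tumor 102 was the lowest and tumor 158 the highest, and the other 4 tumors, 2 of each age, lay between 6.57 and 6.77. The difference between the age groups, -0.18 (older 6.57 ± 0.25, younger 6.76 ± 0.25, SD, n = 3 each), was smaller than the spread within either group. It was -0.05 without tumor 102 and -0.04 without tumor 158.

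**Figure D1:**
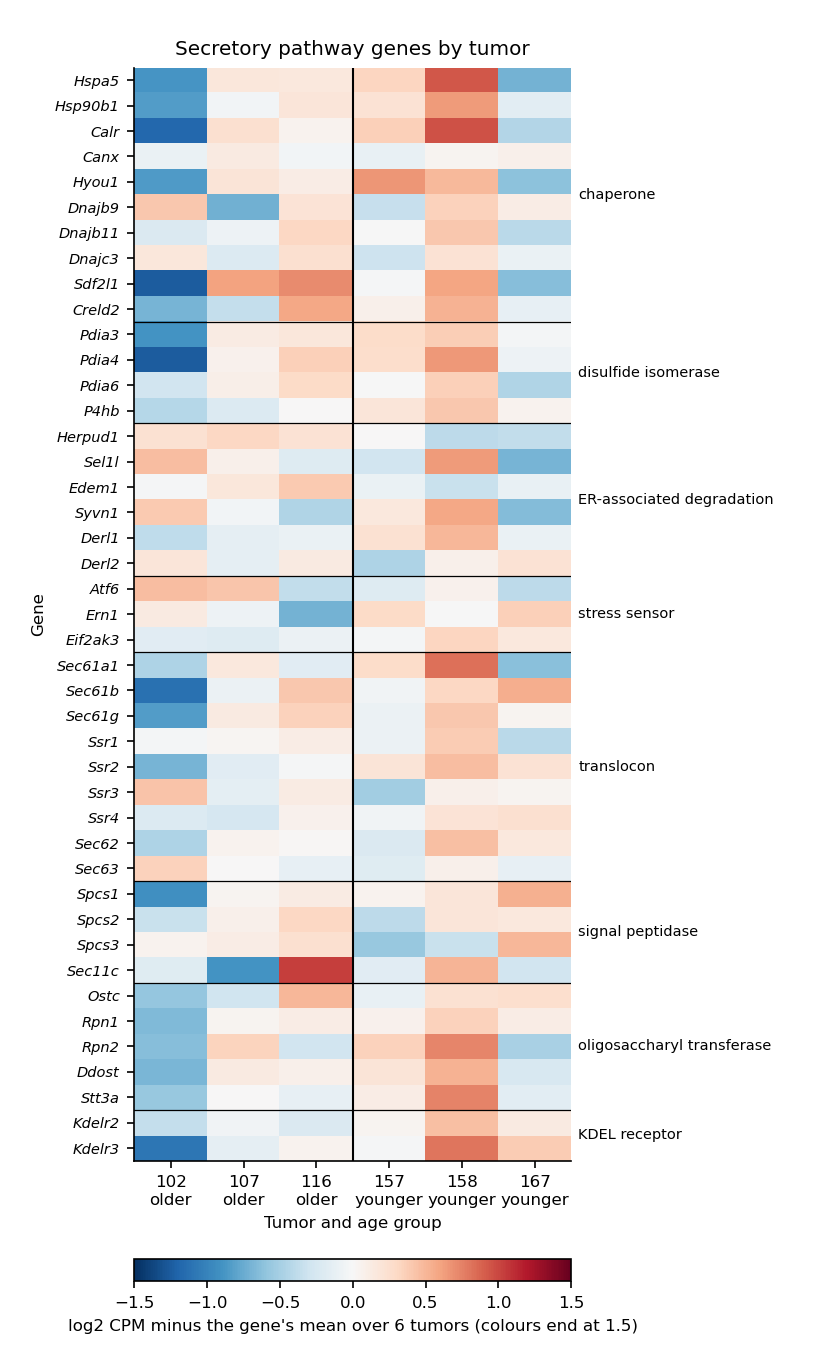
Each cell is the log2 CPM of 1 gene in 1 tumor minus that gene's mean over the 6 tumors, with genes in rows grouped by role (ER stands for endoplasmic reticulum) and tumors in columns, older left and younger right of the line. Blue fills much of the column of tumor 102, the lowest tumor for 22 of 43 genes, and red that of tumor 158, the highest for 23.

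Tumor 102 had the lowest level of the 6 tumors for 22 of the 43 genes (51.2%), and tumor 158 the highest for 23 (53.5%), where 27.3% of all genes tested were lowest in tumor 102 and 16.6% highest in tumor 158. For 16 genes both held. These 16 included the chaperones Hspa5, Hsp90b1 and Calr, the KDEL receptors Kdelr2 and Kdelr3 and 4 of the 5 listed subunits of oligosaccharyl transferase. Tumor 102 was the highest for 4 of the 43 genes: Dnajb9, a cochaperone, the stress sensor Atf6, Ssr3 of the translocon-associated complex and Sec63. Markers of other cells and the mitochondrial share also differed between the tumors. The 3 adipocyte markers tested of 4 listed summed to 161 CPM in tumor 102 and 4.67 to 18.3 CPM in the others, and the 5 fibroblast markers to 1280 CPM in tumor 102 and 117 to 1024 CPM in the others. The 3 basal markers tested of 4 summed to 559 CPM in tumor 102 and 746 to 2457 CPM elsewhere. For the adipocyte, fibroblast and basal sums tumor 158, at 11.2, 1000 and 1843 CPM, lay among the other tumors. Mitochondrial genes took 8.71% of the counts in tumor 102, 8.46% in tumor 167 and 4.95% in tumor 158, the lowest of the 6. The part of these differences in the levels of the 43 genes was not tested.

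The question put to the age groups was whether carcinogen-induced tumors differ with the age of the host. None of the 43 genes passed an adjusted p of 0.05 (edgeR's quasi-likelihood test), nor did any of the 13139 genes tested (0%). At an unadjusted p under 0.05 the count was also 0 of 43, against 3.29% of all genes lower and 5.3% higher in older tumors. DESeq2 called 0 of the 43, against 2.48% of all genes, and limma-voom called 0 of the 43 and 0 of 13134 genes other than caseins. At an unadjusted p under 0.05 limma-voom had 1 of the 43, lower in older tumors. Of the 13134 genes, 353 were lower and 534 higher at that threshold. The log2 fold changes, older against younger, ran from -0.74 to 0.49 with a median of -0.26, where the median over all genes was -0.00378. They were below 0 for 29 of the 43 genes (67.4%) and for 50.4% of all genes tested. Without tumor 102 the median was -0.10 with 26 genes below 0, and without tumor 158 it was -0.02 with 24 below 0.

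**Figure D2:**
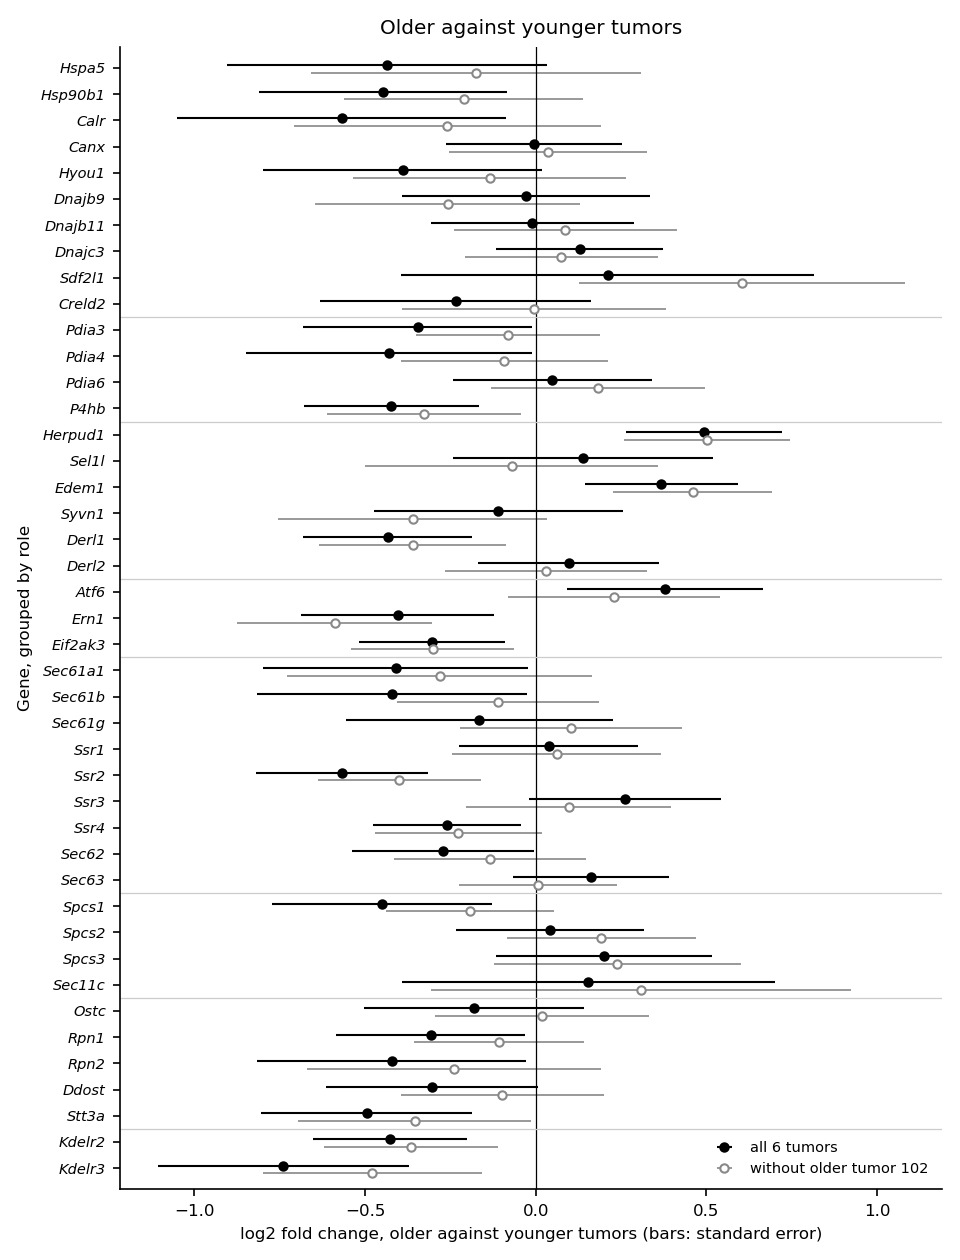
Points are log2 fold changes of older against younger tumors for the 43 tested genes, grouped by role, and bars are standard errors. Filled points use all 6 tumors and open points leave out tumor 102, where the median moves from -0.26 to -0.10.

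Of the 10 chaperones tested, 8 had a log2 fold change below 0 and 0 had age groups that did not overlap. Hspa5 encodes BiP, the main Hsp70 of the endoplasmic reticulum and the one that holds the stress sensors inactive. It was at 178, 370 and 367 CPM in older tumors 102, 107 and 116 and at 412, 624 and 201 CPM in younger tumors 157, 158 and 167. Both groups had a low tumor, 102 and 167, and the groups overlapped (log2 fold change -0.43, with a standard error, SE, of 0.47, edgeR adjusted p = 0.898).

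Calr, the lectin chaperone calreticulin, was at 221, 590 and 519 CPM in older and 640, 965 and 368 CPM in younger tumors. The 6 tumors stood in the same order as for Hspa5 (log2 fold change -0.57, SE 0.48, edgeR adjusted p = 0.852). Hsp90b1, the Hsp90 of this compartment, ranged from 311 CPM in tumor 102 to 867 CPM in tumor 158, with a log2 fold change of -0.45 (SE 0.36). Hyou1, a large chaperone that exchanges the nucleotide of BiP, ranged from 63.4 CPM in tumor 102 to 182 CPM in tumor 157, with a log2 fold change of -0.39 (SE 0.41).

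Canx, the membrane-bound relative of calreticulin, was flat by comparison, at 720 to 853 CPM in the 6 tumors. Dnajb9, an Hsp40 partner of BiP, was at 17.2 to 38.0 CPM, lowest in tumor 107 and highest in tumor 102 (log2 fold change -0.03, SE 0.36). Creld2, a secreted isomerase-like stress protein, was at 14.4, 18.3 and 35.7 CPM in older and 25.0, 34.2 and 21.6 CPM in younger tumors. Sdf2l1, which works with BiP, was at 2.74 CPM in tumor 102 from 8 counts and at 4.42 to 12.0 CPM elsewhere, so its log2 fold change of 0.21 carried a standard error of 0.61. Of the 6 genes with the full promoter element, 4 were lowest in tumor 102 and 3 highest in tumor 158, and their log2 fold changes ran from -0.57 to 0.13 with a median of -0.33. Of the 30 genes whose promoters lacked it, 15 were lowest in tumor 102 and 15 highest in tumor 158, and their median was -0.17.

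The 4 disulfide isomerases, which form and reshuffle cysteine bonds, were all highest in tumor 158. P4hb, the founding member and also a subunit of collagen prolyl hydroxylase, was at 318, 372 and 430 CPM in older tumors 102, 107 and 116 and at 486, 569 and 447 CPM in younger tumors 157, 158 and 167. All older tumors lay below all younger ones (log2 fold change -0.42, SE 0.26, edgeR adjusted p = 0.763). Pdia4 was at 53.1 CPM in tumor 102 and 120 to 199 CPM in the other 5 tumors, so that its log2 fold change of -0.43 was -0.09 without tumor 102. Pdia6 overlapped between the groups, at 157, 204 and 234 CPM in older and 190, 245 and 140 CPM in younger tumors.

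Of the 43 genes, 4 had all older tumors below all younger ones (9.30%, against 5.58% of all genes tested), and 2 had all older tumors above (4.65%, against 6.51%). Beside P4hb, the 4 were Ssr2, Eif2ak3 and Kdelr2. Ssr2, a subunit of the translocon-associated complex, was at 72.0, 104 and 116 CPM in older and 134, 162 and 136 CPM in younger tumors (log2 fold change -0.57, SE 0.25, edgeR adjusted p = 0.597). Kdelr2 was at 102, 126 and 112 CPM in older and 134, 179 and 143 CPM in younger tumors, with a log2 fold change of -0.43 (SE 0.23, edgeR adjusted p = 0.703). Kdelr3, another KDEL receptor, had the log2 fold change furthest below 0 of the 43 genes, -0.74 (SE 0.37, edgeR adjusted p = 0.670). Its levels of 19.2, 37.6 and 42.7 CPM in older and 40.7, 72.2 and 53.8 CPM in younger tumors overlapped, because tumor 116 lay just above tumor 157.

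The 3 stress sensors did not share a direction. Eif2ak3 encodes PERK, the kinase that slows translation, and was at 58.3, 57.3 and 61.4 CPM in older and 63.9, 81.8 and 72.7 CPM in younger tumors. The older tumors were close to each other and below the younger ones (log2 fold change -0.30, SE 0.21, edgeR adjusted p = 0.807). Ern1, which encodes IRE1, the nuclease that splices Xbp1 mRNA, was at 59.0, 51.1 and 32.9 CPM in older and 66.0, 53.7 and 69.3 CPM in younger tumors. Atf6 was at 137, 133 and 77.0 CPM in older and 86.8, 104 and 75.4 CPM in younger tumors, so older tumors 102 and 107 stood above the rest while tumor 116 lay with the younger tumors (log2 fold change 0.38, SE 0.29, edgeR adjusted p = 0.827).

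In endoplasmic reticulum-associated degradation, 4 of 6 genes had a log2 fold change above 0. Herpud1, a membrane protein that recruits the degradation machinery, was at 56.6, 60.0 and 56.0 CPM in older and 48.4, 36.7 and 37.4 CPM in younger tumors. Its older tumors all lay above the younger ones, and its log2 fold change of 0.49 was the highest of the 43 genes (SE 0.23, edgeR adjusted p = 0.629). Edem1, which picks out misfolded glycoproteins by their sugar chains, was at 157, 180 and 209 CPM in older and 149, 126 and 148 CPM in younger tumors, again without overlap (log2 fold change 0.37, SE 0.22, edgeR adjusted p = 0.763). For both genes the fold change was as large without tumor 102, at 0.50 and 0.46. Derl1, a channel protein of the same process, went the other way, at 42.5 to 51.6 CPM in older and 51.6 to 78.7 CPM in younger tumors, with a log2 fold change of -0.43 (SE 0.25).

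Among 13 further transducers of the response, 11 were tested and 0 passed the adjusted threshold. Xbp1, the transcription factor made active by IRE1, was at 1360, 708 and 609 CPM in older and 310, 514 and 475 CPM in younger tumors. All older tumors lay above all younger ones and tumor 102, where Hspa5 was lowest, had the highest value (log2 fold change 1.04, SE 0.40, edgeR adjusted p = 0.508). Counts per gene do not separate spliced from unspliced Xbp1 mRNA. Atf4 and Ddit3, which act downstream of PERK, had log2 fold changes of -0.08 and -0.79 with adjusted p = 0.970 and 0.712 (edgeR). Plasma cells use Xbp1 as well, and their 8 listed markers did not share a direction. Ighm, Jchain, Prdm1 and Irf4 were higher in every older tumor than in any younger one, while Sdc1 and Pou2af1 were lower. For Prdm1 the gap was small, with tumor 116 at 6.18 CPM and tumor 157 at 6.16 CPM. Irf4, not tested, was at 1.81 to 5.14 CPM in older and 0.180 to 1.58 CPM in younger tumors. Ighm was at 15.8 to 24.1 CPM in older and 1.58 to 3.06 CPM in younger tumors and Jchain, with only 2 to 17 counts in younger tumors, at 3.85 to 20.9 and 0.491 to 3.06 CPM. Sdc1, which epithelium also expresses, was at 65.1 to 108 CPM in older and 171 to 270 CPM in younger tumors, and Pou2af1, not tested, had 0 to 1 and 2 to 28 counts. The 4 plasma cell markers tested, most of whose level is Sdc1, summed to 103 to 159 CPM in older and 182 to 278 CPM in younger tumors. Mzb1 was at 0 in 5 of the 6 tumors. The 4 macrophage markers summed to 154 to 293 CPM in older and 71.5 to 107 CPM in younger tumors. Of these markers 3 were higher in every older tumor. C1qa overlapped, with tumor 102 at 19.2 CPM and the younger tumors at 21.1 to 25.9 CPM. The part of these cells in the levels of Xbp1, Herpud1 and Edem1 was not tested.

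**Figure D3:**
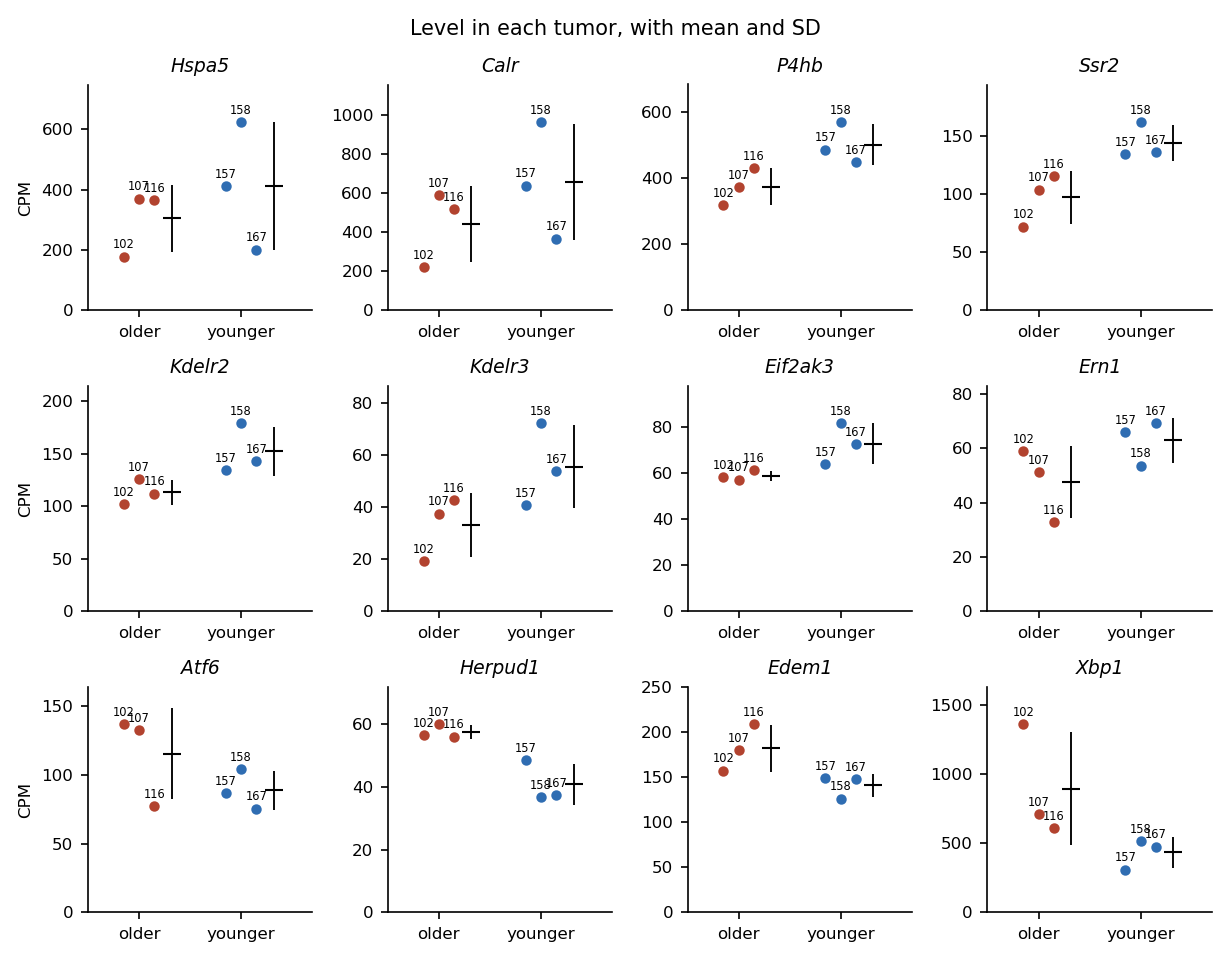
Levels in CPM for 11 of the 44 genes and for Xbp1, with 1 labelled point per tumor and, beside each group, its mean and SD (n = 3 each). P4hb, Ssr2, Kdelr2 and Eif2ak3 have all older tumors below the younger ones, and Herpud1, Edem1 and Xbp1 all above.

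The translocon, through which nascent proteins enter the endoplasmic reticulum, had 6 of 9 genes with a log2 fold change below 0, from -0.57 to 0.26 over the 9. Sec61a1, the channel itself, was at 135, 210 and 167 CPM in older and 226, 333 and 121 CPM in younger tumors, low in tumors 102 and 167 as Hspa5 was. Sec61b, a small subunit of the channel, was at 22.3 CPM in tumor 102 and 46.2 to 71.5 CPM in the other 5 tumors, and its log2 fold change of -0.42 was -0.11 without tumor 102. Ssr4, another subunit of the associated complex, stayed between 81.0 and 115 CPM.

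Signal peptidase was the role with the smallest difference in mean log2 CPM between the age groups, -0.06 over 4 genes. Spcs3, an accessory subunit, was at 164, 172 and 188 CPM in older and 106, 126 and 224 CPM in younger tumors, with the older tumors inside the younger range. Sec11c, a catalytic subunit, was at 6.11 to 24.5 CPM, with both ends in older tumors (107 and 116), and had a standard error of 0.55.

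All 5 subunits of oligosaccharyl transferase among the 44 genes had a log2 fold change below 0, from -0.50 to -0.18. All 5 were lowest in tumor 102, without which Ostc was at 0.02. Of subunits outside the 44 genes, Stt3b, Dad1, Tusc3 and Krtcap2 were also below 0 and lowest in tumor 102. Magt1 went the other way, with a log2 fold change of 0.29 and its highest level in tumor 102. Stt3a, the catalytic subunit that works beside the channel, was at 119, 178 and 163 CPM in older and 193, 298 and 159 CPM in younger tumors (log2 fold change -0.50, SE 0.31, edgeR adjusted p = 0.773). Rpn1, a scaffold subunit, was at 131 CPM in tumor 102 and 213 to 263 CPM in the other 5 tumors, which did not separate by age. The mean log2 CPM over the 5 subunits among the 44 genes was 6.65 in tumor 102, 7.79 in tumor 158 and 7.18 to 7.40 in the other tumors.

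The second comparison set these genes against the caseins, the main protein load of a milk-secreting cell. The 5 casein genes together took 13.5%, 12.0% and 4.42% of the counts in older tumors 102, 107 and 116 and 2.96%, 15.1% and 0.622% in younger tumors 157, 158 and 167. Casein counts thus covered a wide range within both age groups. In tumor 102 most of them came from Csn2 (9.53% of all counts) and in tumor 158 from Csn1s1 (8.47%). The tumors with the lowest and the highest mean of the 43 genes, 102 and 158, were therefore the 2 tumors with the largest casein share. Tumor 167, with 0.622% caseins, had a mean of 6.57 and tumor 107, with 12.0%, a mean of 6.65.

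Each gene was fitted against the log2 CPM of the summed caseins over all 6 tumors, so a slope gives the log2 change per doubling of casein. None of the 43 genes passed an adjusted p of 0.05 (edgeR), where 2 of 13134 genes other than caseins did (0.0152%). DESeq2 passed 1 of the 43, Sel1l, and 3.22% of all genes. At an unadjusted p under 0.05, 3 of the 43 (6.98%) had a slope above 0 and 0 a slope below 0, against 6.48% and 4.83% of all genes. The median slope was 0.02 (all genes 0.00799), and 24 of the 43 slopes (55.8%) were above 0, as were 52.1% of all. With libraries scaled by their totals alone, in which caseins take up part of the scale, 11 of the 43 slopes were above 0. The median slope was then -0.064 for the 43 genes and -0.078 for all genes other than caseins. Without tumor 102 the median slope was 0.06 and 35 of the 43 (81.4%) were above 0. Without tumor 158 it was -0.04 with 27 of the 43 below 0, and without tumor 167 it was 0.01 with 21 below 0.

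The 3 genes were Sel1l, Syvn1 and Atf6. Sel1l and Syvn1 (HRD1) form the ubiquitin ligase complex at the core of endoplasmic reticulum-associated degradation. In ascending order of casein share (tumors 167, 157, 116, 107, 102 and 158), Sel1l was at 92.6, 124, 131, 158, 208 and 235 CPM. Its order was that of the caseins in all 6 tumors, with both age groups along the same course (slope 0.26, SE 0.07, edgeR adjusted p = 0.260). In the same order Syvn1 was at 52.3, 91.7, 60.2, 79.9, 108 and 123 CPM (slope 0.22, SE 0.08, edgeR adjusted p = 0.402) and Atf6 at 75.4, 86.8, 77.0, 133, 137 and 104 CPM (slope 0.17, SE 0.07, edgeR adjusted p = 0.426). For Sel1l and Atf6 tumors 102, 107 and 158 stood above the other tumors, while for Syvn1 tumor 107 lay below tumor 157. The high place of tumor 102 in these 3 genes follows in part from naming them by their slope on casein. For Hspa5 and Calr tumor 102 was the lowest.

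Tumor 167 lies far from the other tumors in casein, and the precision of the slopes rested on it. Without tumor 167 the slope of Sel1l was 0.35 (SE 0.13, edgeR adjusted p = 0.898), and without tumors 167 and 157, the 2 farthest from the median casein level, it was 0.41 (SE 0.23). Syvn1 and Atf6 kept slopes above 0 in both cases, at 0.20 and 0.52 for Syvn1 and at 0.28 and 0.39 for Atf6. Hspa5 had a slope of 0.19 (SE 0.15, edgeR adjusted p = 0.671), which was 0.29 (SE 0.09, edgeR adjusted p = 0.330) without tumor 102 and 0.02 without tumor 167. The slopes of Calr, Sec61a1 and Rpn2 were 0.13, 0.18 and 0.15, and 0.24, 0.26 and 0.23 without tumor 102. Without tumor 158 they were -0.01, 0.08 and 0.06 and that of Hspa5 was 0.06, and without tumor 167 the 3 slopes were 0.03, 0.10 and 0.07. The lowest slope, -0.15 (SE 0.11), was that of Sec61b.

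**Figure D4:**
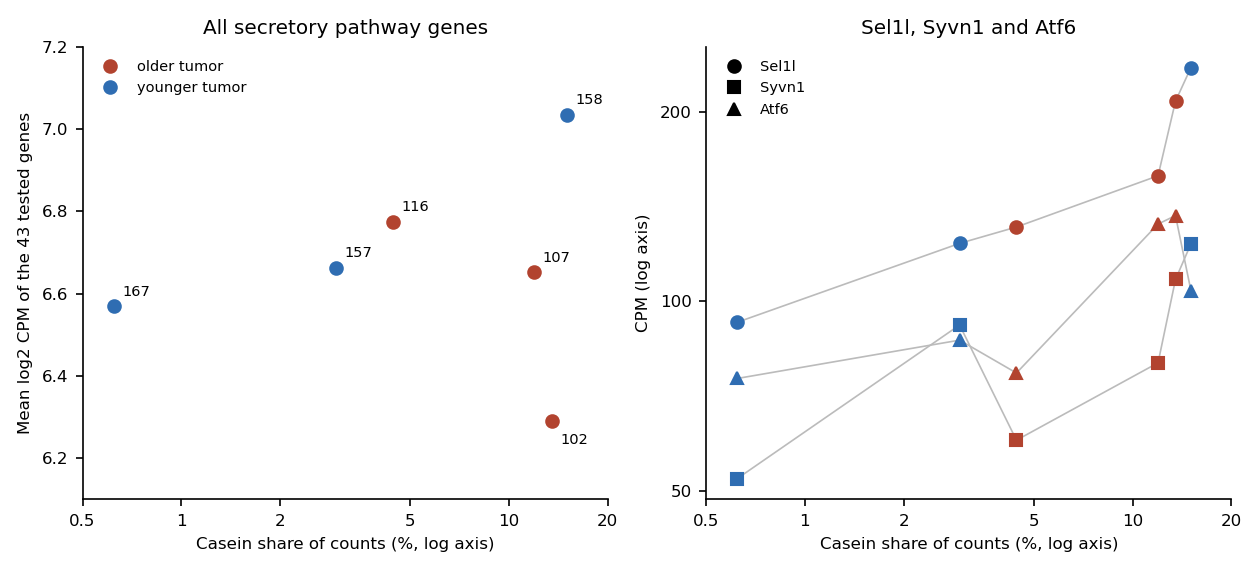
The left plot sets the mean log2 CPM of the 43 tested genes against the casein share of counts in each tumor, with tumors 102 (13.5% casein) and 158 (15.1%) at opposite ends of the vertical axis. The right plot gives the CPM of Sel1l, Syvn1 and Atf6 on the same horizontal axis, with Sel1l higher at each step in casein, from 92.6 to 235 CPM.

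With the casein level as a covariate in the age comparison, 0 of the 43 genes passed the adjusted threshold and 31 had a log2 fold change below 0, as did 46.8% of all genes. At an unadjusted p under 0.05 there were 2 of the 43, both lower in older tumors, where 4.07% of all genes were, Sec61a1 at -0.71 (adjusted p = 0.654, edgeR) and Stt3a at -0.68 (adjusted p = 0.654, edgeR). The covariate leaves 3 residual degrees of freedom per gene.

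Other genes of the pathway were read from lists of folding enzymes, degradation genes, targeting, translocon, peptidase and glycosylation genes, and COPII coat genes, which form the vesicles that leave the endoplasmic reticulum. In the age comparison 0 of 15 folding enzymes, 0 of 10 degradation genes, 0 of 13 targeting to glycosylation genes and 0 of 12 COPII genes tested passed the adjusted threshold. Their median log2 fold changes were -0.11, -0.16, -0.20 and 0.03. Against casein, 0 passed either, and at an unadjusted p under 0.05 with a slope above 0 there were 0, 1, 0 and 6 genes, and with a slope below 0 there were 1, 0, 1 and 0.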

How the data were processed

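The 6 tumors profiled by bulk RNA-seq were grouped by the age class in the labels. Per the labels and the study's methods, the authors depleted ribosomal RNA, checked reads with FastQC 0.11.7, trimmed them with Trimmomatic 0.38, aligned them with STAR 2.7.9a, marked duplicates with Picard 2.18.12 and deposited raw read counts per gene from HTSeq 0.13.5, on build mRatBN7.2. The annotation, the strand setting and the use of marked duplicates are not given in the sources used here, so reads of overlapping or antisense genes cannot be told apart. Labels name polyA RNA and a read length of 100 bases, and the protocol 150.

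The 4367 rows without a gene name (2.17% to 3.64% of counts) were left out, and 0 columns were unused. Genes were filtered with filterByExpr, scaled by TMM and tested with edgeR 4.0.16 (quasi-likelihood, R 4.3.3) for age and, separately, for the slope on log2 summed casein CPM, with Benjamini-Hochberg adjustment over all genes tested. Alternatives used DESeq2 1.42.0 and limma 3.58.1. Each standard error (SE) is the fold change or slope divided by the root of its F value. A prior count of 2 entered log2 CPM. The fits were also run on simulated counts. For age, the nonzero log2 effects put into these were larger than any log2 fold change of the 43 genes. The simulation therefore cannot say whether changes as small as those would be found. P-values measure the spread between these tumors, whose relation to rats the labels give only as ID numbers.

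The genes, lists and comparisons were chosen with earlier results of these data known. The rule for naming covered 26 leading genes, any other with an unadjusted p under 0.05 or age groups that did not overlap, and Xbp1, Atf4 and Ddit3. Values of Canx, Derl1, Ostc and the oligosaccharyl transferase subunits outside the 44 genes were given outside this rule. Slopes are printed for genes with an unadjusted p under 0.05 with or without tumor 102 and for the lowest, which was decided after values were seen. Promoters were taken from RefSeq for GRCr8. The sequence of 1 promoter match is not reported here.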

Additional observations from a re-analysis of the deposited data

How the results depend on the processing

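In the age comparison 0 of the genes passed the adjusted threshold under any alternative: DESeq2 size factors, library totals, caseins left out of the scaling, DESeq2's test, limma-voom, a stricter filter (10 counts or more in each tumor), all genes with a count, casein as a covariate, leaving out each tumor, and, chosen after seeing the data, rows without a name kept. Against casein the edgeR count of 0 became 1 with DESeq2, for Sel1l (slope 0.27). With library totals the slopes of Sel1l, Syvn1 and Atf6 were 0.18, 0.13 and 0.09. Of these 3, only Sel1l then had an unadjusted p under 0.05 (edgeR). Syvn1 also lost it with Csn2 alone in place of the summed caseins (slope 0.12). Atf6 lost it with age as a covariate (slope 0.15). The log2 fold change of Sec11c was -0.00771 with limma-voom, and with casein as a covariate Pdia6 was at -0.0857 and Sel1l at -0.24. Leaving out 1 tumor at a time, the sign of the age difference turned at least once for 15 of the 43 genes. These were Canx, Dnajb11, Derl2, Sec61g, Ssr1, Spcs2 and Ostc and, with their ranges, Hspa5 (-0.77 to 0.000636), Dnajb9 (-0.26 to 0.24), Sdf2l1 (-0.10 to 0.60), Pdia6 (-0.14 to 0.27), Sel1l (-0.12 to 0.62), Syvn1 (-0.39 to 0.20), Spcs3 (-0.00875 to 0.58) and Sec11c (-0.60 to 0.50), and the casein slope of Calr ran from -0.0115 to 0.24. The cause of these turns was not tested. No paired analysis was possible because older and younger tumors share no replicate numbers. Depth limits Manf and Sdf2l1 most, with 2 to 13 and 8 to 61 counts per tumor.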

Other observations

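Of 13 listed COPII coat genes, which were singled out after their values were seen, 12 were tested. At an unadjusted p under 0.05, 6 of the 12 had a slope above 0 (edgeR, none past an adjusted p of 0.05; all genes 6.48%), and 10 of the 12 slopes were above 0 (all genes 52.1%), with a median of 0.16. Tumor 167, which had the lowest casein share, was the lowest tumor for 9 of the 12 and tumor 158, which had the highest, was the highest for 9, where 2390 and 2187 of all 13139 genes were. The 4 endothelial markers did much the same, with 4 slopes above 0 at an unadjusted p under 0.05 and 4 lowest in tumor 167, and summed to 60.9 CPM in tumor 167 and 93.9 to 374 CPM in the others. The part of these cells was not tested. Sec24d, a cargo-binding subunit of the coat, was at 42.8, 80.1, 125, 96.0, 202 and 166 CPM in ascending order of casein share (tumors 167, 157, 116, 107, 102 and 158), a slope of 0.42 (SE 0.10, edgeR adjusted p = 0.244). Mia3, which helps to load large cargo, had a slope of 0.16 (SE 0.06, edgeR adjusted p = 0.370).

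Of the 15 other folding enzymes tested, 2 had all older tumors below all younger ones (Ero1a and Mogs; all genes 5.58%) and 1 had them above (Fkbp11; all genes 6.51%). Ero1a, the oxidase that recharges disulfide isomerases and is also raised by low oxygen, was at 87.1 to 275 CPM in older and 282 to 534 CPM in younger tumors (log2 fold change -1.38, SE 0.51, edgeR adjusted p = 0.497). Mogs, which trims the first glucose from new sugar chains, was at 17.8 to 23.3 CPM in older and 24.1 to 31.0 CPM in younger tumors (log2 fold change -0.45, SE 0.26, edgeR adjusted p = 0.745). Fkbp11, a prolyl isomerase of secretory cells, was at 21.6 to 26.0 CPM in older and 9.15 to 15.5 CPM in younger tumors (log2 fold change 1.06, SE 0.32, edgeR adjusted p = 0.370). These genes were singled out after their values were seen.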
